A study of Mus musculus with 4 samples.

Results

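Respiratory complexes II, III, IV and V are the enzymes of the inner mitochondrial membrane that carry electrons from succinate and ubiquinol to oxygen and then make ATP. Their nuclear-encoded subunits were taken as the genes Sdha to Sdhd, Cyc1 and Cycs together with every gene whose symbol begins with Uqcr, Cox4 to Cox8 or Atp5, matched through the RefSeq accession of each array probe. The rule found 49 genes on 74 probes, of 32395 genes and unnamed transcripts on the array. Of the 49, 4 belong to complex II, 10 to complex III with cytochrome c, 18 to complex IV and 17 to complex V, and 47 passed the filter on dim probes. The 2 that did not, Cox7b2 and Cox8c, were not well above background on any array.

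The study measured total RNA from ileum, the distal segment of the small bowel, on single-colour arrays. The tested animals were C57BL/6J male mice aged 10 weeks that had been given metformin by mouth at 1000 mg/kg (2 samples), and the controls were C57BL/6J male mice of the same age (2 samples). The labels name no vehicle and no length of treatment. They do not say whether a group's samples are different mice, so the p-values rest on a spread between samples that could be technical.

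Complex II, succinate dehydrogenase, is also an enzyme of the TCA cycle and hands electrons to ubiquinone. Complex III passes them to the small carrier cytochrome c, complex IV gives them to oxygen, and complexes III and IV pump protons as they do so. Complex V, the ATP synthase, lets the protons flow back and makes ATP. Metformin is a biguanide known to inhibit complex I, the other entry point of this chain, and the epithelial cells of the small intestine rely on mitochondria to power nutrient uptake. Several subunits of complex IV come in paired isoforms, one made in most tissues and another made mainly in muscle, brown fat, lung or testis.

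The arrays shared 1 slide and 1 scan, but metformin samples took positions 3 and 4 and controls positions 1 and 2, so position and treatment cannot be told apart. Between 65.1% and 69.1% of probes were well above background and 0 spots were saturated. The epithelial markers were well above background on every array (7 of 7), as were the ileal enterocyte markers (6 of 6). The summed signal of the ileal markers, in units of each array's 75th percentile, was however 67.8 in metformin 1 and 583 in metformin 2, against 619 in control 1 and 413 in control 2. The summed signal of 12 smooth muscle markers was 12.5 and 22.8 in the metformin samples, against 190 in control 1 and 26.2 in control 2. Metformin 1 and control 1 thus stood apart in tissue markers, and results are given below with and without them. In bulk tissue, fewer cells of a type and less RNA per cell cannot be told apart.

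The subunit genes of complexes II to V read slightly higher in the metformin samples, nearly all by a similar small amount, and no single gene passed the test. The mean was higher in 46 of 47 genes (97.9%), against 57.6% of all 21648 genes and transcripts tested, and lower in 1, against 42.4%. The median difference of the 47 was 0.21 on the log2 scale, against 0.06 over all genes tested. The 46 higher genes differed by 0.05 to 0.38 (SD over genes 0.07). The exception was Cox8b, the muscle and brown fat form of subunit VIII, which was well above background in the controls alone.

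In limma's fit 0 of the 47 genes passed after Benjamini-Hochberg adjustment (adjusted p = 1.00 for each), as did 0% of all genes tested. Cox8b was the only member at an unadjusted p under 0.05, against 1.6% of all genes, and nothing is read from it: the gene passed the filter only through the controls, and its metformin values are at background. With 2 samples a group the intervals were wide. Cox4i1, the widely expressed form of subunit IV, had the median difference, 0.21, with a 95% interval from -0.55 to 0.97. A p that misses the threshold here does not show that the groups were alike.

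**Figure D1:**
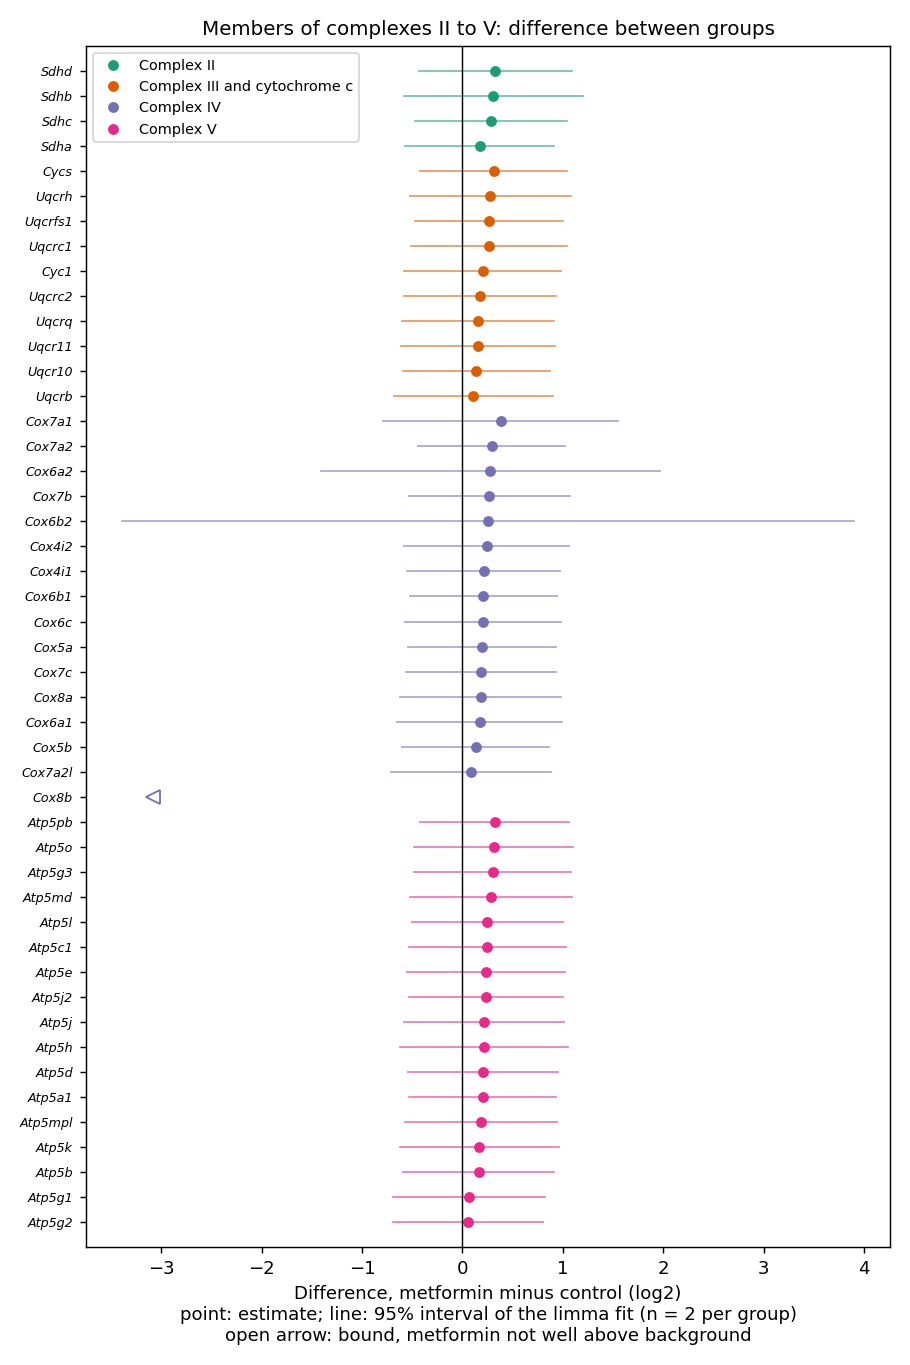
Difference between metformin and control (log2, horizontal axis) for each of the 47 genes, grouped by complex; points are estimates and lines the 95% intervals of the limma fit (n = 2 per group). Of the 47 points, 46 lie between 0.05 and 0.38 with intervals that span 0. Cox8b is drawn as an arrow at its bound on the processed signal, at least 8.48-fold lower, with no interval. The bound does not hold under other background corrections.

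The metformin samples lay above both controls in 31 of the 47 genes (66%), against 12.3% of all genes tested in that direction. They lay below both controls in 1 gene, Cox8b, against 8.57% of all genes, a direction that its way through the filter favoured. Without overlap in the higher direction were 3 of 4 genes of complex II, 8 of 10 of complex III with cytochrome c, 8 of 16 of complex IV and 12 of 17 of complex V. These counts depended on the scaling of the arrays. With quantile normalization 43 of 47 genes were higher, the median difference was 0.11 against 0.06 over all genes, and the metformin samples lay above both controls in 13 members, against 14.1% of all genes.

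The array-to-array pattern was shared by most of these genes. Relative to each gene's own mean over the 4 arrays, the median of the 47 was 0.19 in metformin 1 and 0.04 in metformin 2, against -0.03 in control 1 and -0.18 in control 2. The distance between the 2 arrays of a group was thus somewhat smaller than the median difference of 0.21 between the groups. Metformin 2 lay close to control 1. Metformin 1 was the highest array in 37 of the 47 genes, against 38.5% of all genes, and control 2 was the lowest in 35, against 36.9% of all genes. Over all genes tested the medians were 0.07 and -0.01 in the metformin samples, against 0.03 and -0.10 in the controls. Without metformin 1 the median difference of the 47 was 0.14 and 43 were higher, and without control 1 it was 0.28 and 44 were higher.

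**Figure D2:**
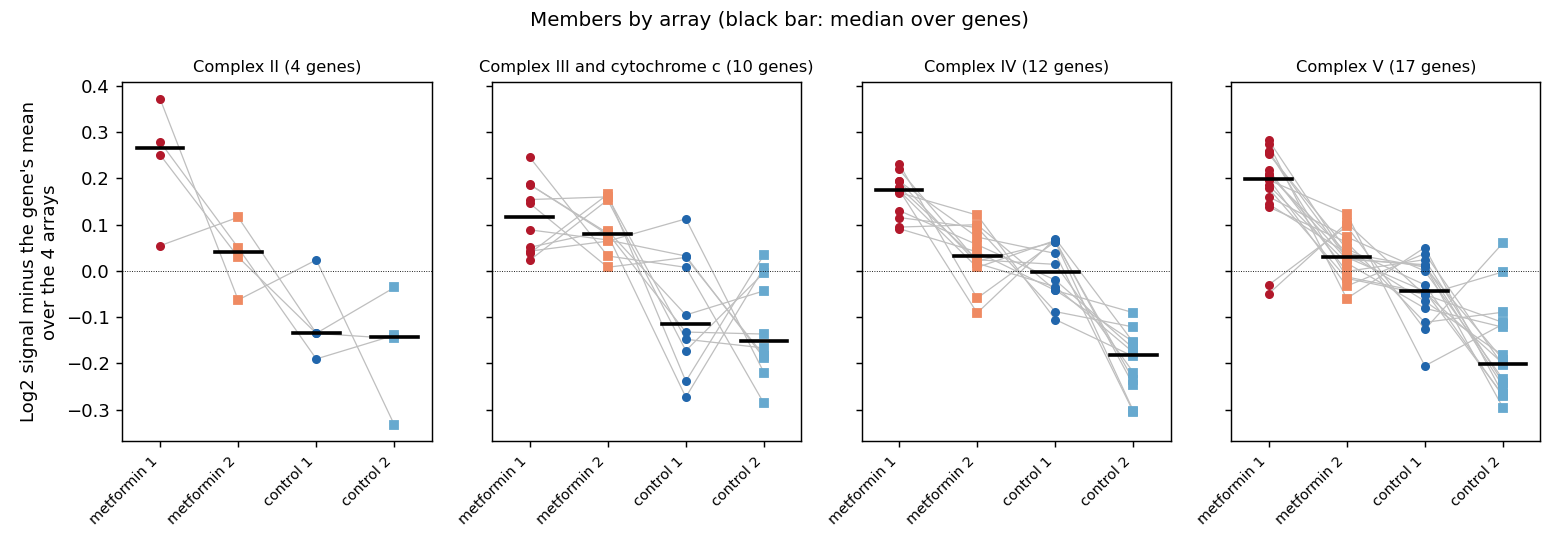
Log2 signal of each gene minus its mean over the 4 arrays (vertical axis) in metformin 1 and 2 and control 1 and 2, one panel per complex, with thin lines joining a gene and black bars at the median. The 43 genes whose values spanned less than 1 log2 unit are drawn (64% of all genes tested did); most are highest in metformin 1 and lowest in control 2, with metformin 2 and control 1 between.

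Markers of absorptive enterocytes moved between arrays as well. All 10 measured enterocyte markers were higher by mean with metformin (median difference 0.43), against 57.6% of all genes. None was free of overlap, against 12.3% of all genes in the higher direction. All 10 were highest in metformin 1, against 38.5% of all genes. Relative to each gene's mean, their median was 0.99 in metformin 1 and -0.50 in metformin 2, against 0.20 in control 1 and -0.63 in control 2. The general epithelial markers had medians of -0.04 and 0.24 with metformin, against 0.00 and 0.02 in controls (7 markers, 6 higher by mean). The summed enterocyte signal was 2087 and 1084 in the metformin samples, against 1402 and 874 in the controls. Of the 8 lymphocyte markers, all higher by mean (median difference 0.52), 1 was without overlap, against 12.3% of all genes. All 8 were highest in metformin 1, against 38.5% of all genes. Their medians were 0.91 and -0.46 with metformin, against -0.32 and -0.12 in controls. The part of cell makeup in the small shift of the respiratory genes was not tested.

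Complex II had a median difference of 0.30 over its 4 genes, and all 4 were higher by mean. The order of the complexes by median was not stable. Without control 1 the medians were 0.30 in complex II, 0.26 in complex III, 0.30 in complex IV and 0.31 in complex V, and without metformin 1 they were 0.19, 0.19, 0.11 and 0.13 in the same order. Sdhd, a membrane anchor that binds ubiquinone, read 5.76 and 5.54 with metformin, against 5.30 and 5.35 in controls (log2 signal after subtracting the 75th percentile of its array, as in all values of single genes below). Its groups did not overlap and the difference was 0.33 (SE 0.28). Sdhc, the other anchor, read 4.64 and 4.42 against 4.26 and 4.25 in controls, also without overlap, a difference of 0.28 (SE 0.28). Its second kept probe read 3.75 and 3.51 with metformin, against 3.39 and 3.56 in controls, with overlap (difference 0.16). With the mean of kept probes Sdhc differed by 0.22 and the complex II median was 0.26.

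Sdha, the flavoprotein that oxidises succinate, read 4.92 and 4.98 with metformin, against 4.73 and 4.83 in controls. Its groups did not overlap, and its difference of 0.17 (SE 0.28) was the smallest of the complex among the tested probes. Sdhb, the iron-sulphur subunit that carries electrons from Sdha to the anchors, read 6.66 and 6.22 with metformin, against 6.31 and 5.95 in controls. Here metformin 2 lay below control 1, so the groups overlapped, and the difference was 0.31 (SE 0.33). The second kept Sdhb probe read 4.41 and 4.01 with metformin, against 3.96 and 3.89 in controls, without overlap (difference 0.28).

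In complex III with cytochrome c all 10 genes were higher by mean, 8 without overlap. The median over the 10 genes, relative to each gene's mean, was 0.12 and 0.08 with metformin, against -0.11 and -0.15 in controls, and the median difference was 0.19. Cycs, the somatic cytochrome c, which shuttles electrons from complex III to complex IV and can trigger apoptosis when released, had the largest difference. It read 6.43 and 6.44 with metformin, against 6.13 and 6.11 in controls, a difference of 0.31 (SE 0.27). On this probe, the brightest of 3 kept, the 2 arrays of each group nearly coincided and the groups did not overlap. A second Cycs probe read 4.66 and 4.44 with metformin, against 4.35 and 3.94 in controls, without overlap. The dimmest read -3.17 and -3.88 against -3.73 and -4.05 in controls, with overlap.

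The other members with large differences were the hinge protein Uqcrh and the Rieske iron-sulphur protein Uqcrfs1. Uqcrh, which helps cytochrome c1 interact with cytochrome c, read 7.18 and 6.97 with metformin, against 6.95 and 6.65 in controls (difference 0.28, SE 0.30). Uqcrfs1, which takes electrons from ubiquinol, read 5.51 and 5.40 against 5.19 and 5.18 in controls (difference 0.27, SE 0.28). Both were free of overlap. The core proteins Uqcrc1 and Uqcrc2 and cytochrome c1, Cyc1, differed by 0.27, 0.18 and 0.20 and did not overlap either. The small subunits Uqcrq, Uqcr11, Uqcr10 and Uqcrb had the smallest differences, from 0.11 to 0.16, with overlap in Uqcr11 and Uqcrb. Uqcrb was the only gene of this group that was highest in a control, at 6.12 in control 1.

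Complex IV held the members that varied most over the arrays, Cox8b and Cox6b2. Its median difference was 0.21 over 16 genes, 15 of them higher. Cox7a2, the widely expressed form of subunit VIIa, read 5.72 and 5.67 with metformin, against 5.44 and 5.36 in controls, without overlap (difference 0.29, SE 0.28). Cox7b, another small structural subunit, read 6.60 and 6.48 against 6.45 and 6.10 in controls, a difference of 0.27 (SE 0.30) in which metformin 2 lay just above control 1. The main structural subunits Cox4i1, Cox5a, Cox5b, Cox6b1, Cox6c and Cox7c differed by 0.13 to 0.21, and all 6 were free of overlap. Cox6a1 read 8.37 and 8.08 with metformin, against 8.20 and 7.90 in controls, and Cox8a read 7.65 and 7.48 against 7.54 and 7.23 in controls. In both, metformin 2 lay below control 1. Cox7a2l, a relative of subunit VIIa, showed the smallest difference of complex IV, 0.08 (SE 0.30), with 5.75 and 5.48 against 5.64 and 5.41 in controls.

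Cox8b, the isoform of subunit VIII that rodents make mainly in heart, skeletal muscle and brown fat, passed the filter only through the controls. It read -7.12 and -8.40 in the metformin samples, neither of them well above background, against -3.38 and -4.90 in the controls, both well above it. On the processed signal the metformin arrays give only a bound, at least 8.48-fold lower with metformin (group means -7.76 and -4.14, limma adjusted p = 1.00). That bound rests on the background subtraction in the processed signal and is not a minimum under other corrections. The raw spots were dim in all samples, with median signals of 32 and 29 with metformin, against 113 and 72 in controls, over a local background of 27 to 29.5. The size of the fitted difference is no measurement and turned on the background correction, from -3.62 as processed to -1.31 in the scaled deposited table and -0.73 with normexp, under which the groups overlapped. The gene was not kept where all 4 arrays had to be well above background. Cox8a, its widely expressed counterpart, differed by 0.18 (SE 0.30).

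Most tested markers of adipocytes and striated muscle were lower by mean. Among all genes tested, 42.4% were lower by mean and 8.57% were lower without overlap, the shares to set beside each list here. Of 8 tested adipocyte markers 7 were lower, 6 of them without overlap, with medians of -0.69 and -2.05 with metformin, against 0.87 and 1.89 in controls. Their summed signal, over all 10 listed markers, was 23.6 and 7.14 with metformin, against 14.7 and 16.4 in controls. Cidec, the 1 higher marker and the brightest listed on every array, read 4.46 and 2.72 with metformin, against 3.29 and 2.76 in controls. The brown fat gene Ucp1 was not well above background on any array. Cidea, another gene of brown fat, read -5.001 and -3.31 with metformin, against -2.12 and -3.97 in controls, with overlap. All 4 tested striated muscle markers were lower, 3 without overlap, and Myl2 and Mb were not well above background on any array. The summed signal of the 8 striated markers was 0.257 and 8.11 with metformin, against 3.80 and 9.44 in controls. Control 1 was the highest array for Cox8b and for 4728 of the 21648 genes tested. It was also the highest for all 11 tested smooth muscle markers, all 8 fibroblast markers and 7 of 8 neuron and glia markers. Of the tested adipocyte markers 2 of 8 were highest there, as were 2 of 4 striated muscle markers. The smooth muscle medians were -1.78 and -0.99 with metformin, against 3.82 and -0.76 in controls. Fibroblast markers were lower in 8 of 8 genes, all without overlap (median difference -2.08), with medians of -0.55 and -1.53 with metformin, against 1.82 and 0.36 in controls. Neuron and glia markers were lower in 7 of 8 genes, 3 without overlap (median difference -1.58). Lower readings were thus not limited to the muscle and fat lists, and the part of any of these cells in the Cox8b difference was not tested.

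The other tissue isoforms that passed the filter, Cox7a1, Cox6a2, Cox6b2 and Cox4i2, were well above background on every array. Cox7a1, the heart and skeletal muscle form of subunit VIIa, read 5.85 and 5.16 with metformin, against 5.50 and 4.75 in controls. This was the largest positive difference of all 47 genes, 0.38 (SE 0.44), but metformin 2 lay below control 1. Cox6a2, the muscle form of subunit VIa, read -3.05 and -4.16 with metformin, against -4.52 and -3.25 in controls. Its groups overlapped, its difference was 0.28 (SE 0.63), and it was -0.36 without control 1 and -0.28 without metformin 1.

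Cox6b2, known from testis, split the arrays in another way. It read 0.92 in metformin 1 and -1.96 in metformin 2, against 0.59 in control 1 and -2.14 in control 2, so that the samples numbered 1 stood above those numbered 2 in both groups. Its difference was 0.26 with an SE of 1.36. Its counterpart Cox6b1 spanned little, at 3.58 and 3.56 against 3.37 and 3.34 in controls. Cox4i2, a lung form that can replace Cox4i1 at low oxygen, read -2.37 and -2.57 with metformin, against -2.53 and -2.90 in controls (difference 0.24, SE 0.31), and Cox4i1 read 7.27 and 7.09 against 7.04 and 6.90 in controls. Values of different probes are not comparable in level, so only the pattern over arrays is compared here.

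**Figure D3:**
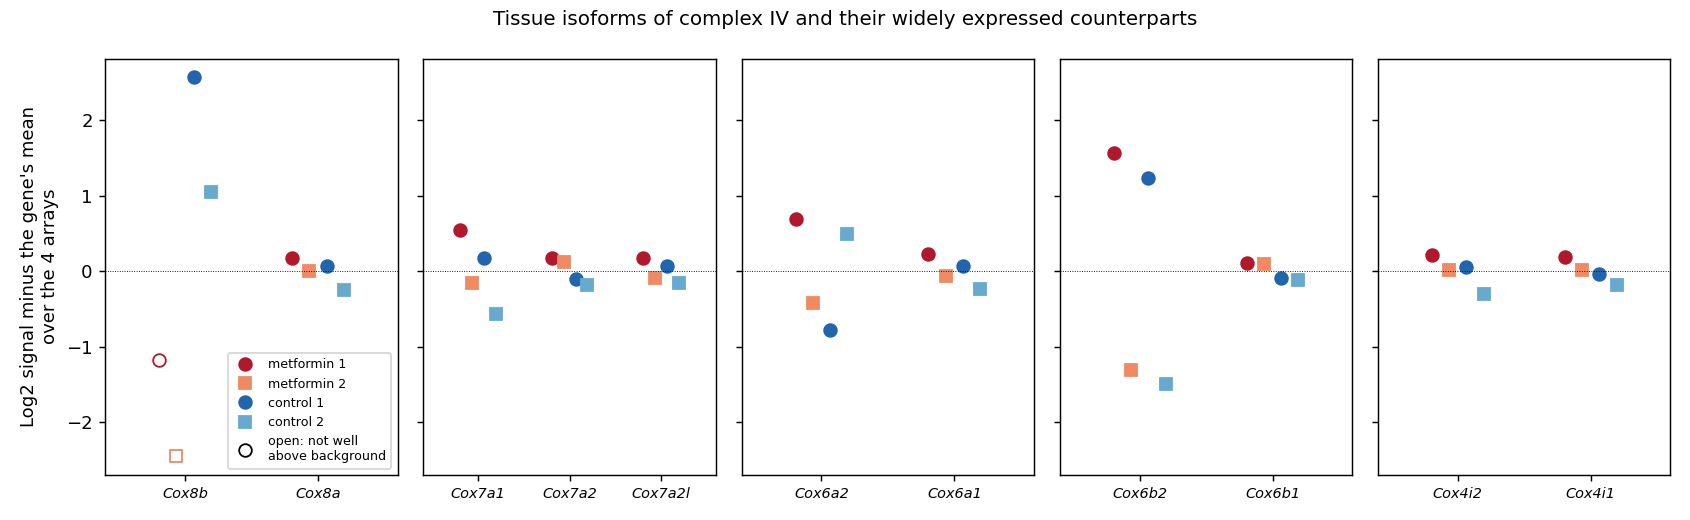
Log2 signal minus the gene's mean over the 4 arrays (vertical axis) for tissue isoforms of complex IV and their widely expressed counterparts, with 1 point per array. Open symbols are not well above background. Cox8b lies lowest in both metformin samples, Cox6b2 separates the samples numbered 1 from those numbered 2, and Cox8a, Cox7a2, Cox6b1 and Cox4i1 vary little.

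In complex V all 17 genes were higher, 12 without overlap, and the median difference was 0.22, with medians of 0.20 and 0.03 with metformin, against -0.04 and -0.20 in controls. On the tested probes the largest differences were those of Atp5pb and Atp5o, close to the 0.30 of Atp5g3. Both belong to the peripheral stalk that holds the catalytic head still. Atp5pb, subunit b of the stalk, read 4.998 and 4.93 with metformin, against 4.60 and 4.69 in controls. Atp5o, which caps the stalk, read 5.51 and 5.26 against 5.18 and 4.96 in controls. Both were free of overlap, with differences of 0.32 (SE 0.28) and 0.31 (SE 0.30). The second kept probe of Atp5pb gave 0.21, and the mean of its kept probes 0.26. The other stalk subunits Atp5h and Atp5j differed by 0.22 each, with overlap.

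The subunits of the catalytic head, Atp5a1, Atp5b, Atp5c1, Atp5d and Atp5e, differed by 0.16 to 0.25 and none of the 5 overlapped. Of the small membrane subunits that help the enzyme form dimers, Atp5md, Atp5l, Atp5j2, Atp5mpl and Atp5k differed by 0.17 to 0.28, and Atp5k alone overlapped. The 3 genes that encode the same c-ring subunit, which turns as protons pass, differed among themselves. Atp5g3 read 7.49 and 7.29 with metformin, against 7.21 and 6.97 in controls, without overlap (difference 0.30, SE 0.29). Atp5g1 read 6.03 and 6.16 against 5.94 and 6.12 in controls, and Atp5g2 read 6.34 and 6.49 against 6.33 and 6.38 in controls. These overlapped and had the smallest differences of the complex, 0.07 (SE 0.28) and 0.05 (SE 0.28). The second probe of Atp5g2 gave -0.03, whereas the 23 other untested kept probes of the members were all higher (median over the 24 probes 0.21). The gene table lists 14 pseudogenes named after members, none of them on the array, and probe sequences were not used here, so whether pseudogene transcripts add to a signal was not tested.

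Genes of this kind often share promoter elements, so the window from 250 bases before to 50 after the annotated start was searched, on both strands, for the core of the NRF1 motif (GCGC, any base, then TGCGC), the ETS motif bound by GABP (CCGGAAG) and TATAAA. RefSeq promoters of build GRCm38.p6 were found for 37 of the 49 genes (40 promoters). The NRF1 letters stood in 10 of the 40 (25%), against 4.6% of all 32851 promoters in the table. The ETS letters stood in 13 (32.5%, against 8.86%) and TATAAA in 4 (10%, against 13.6%). The median number of CG pairs was 19 per member promoter and 7 over all promoters. A match is a description of the letters and does not show binding. Shown are Cox8b, whose metformin values were at background, its widely expressed counterpart Cox8a, and Sdhd and Cox6a1, which hold both NRF1 and ETS letters. The windows are in lower case with every match in capitals. They lie at chr7:140900397-140900696, chr19:7217567-7217866, chr9:50603800-50604099 and chr5:115348909-115349208, all on the minus strand.
Cox8b: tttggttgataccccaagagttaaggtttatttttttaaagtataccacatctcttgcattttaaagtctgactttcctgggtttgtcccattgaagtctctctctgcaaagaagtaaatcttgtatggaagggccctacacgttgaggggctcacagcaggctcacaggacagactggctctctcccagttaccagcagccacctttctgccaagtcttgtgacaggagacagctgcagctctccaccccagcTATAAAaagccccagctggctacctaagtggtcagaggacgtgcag
Cox8a: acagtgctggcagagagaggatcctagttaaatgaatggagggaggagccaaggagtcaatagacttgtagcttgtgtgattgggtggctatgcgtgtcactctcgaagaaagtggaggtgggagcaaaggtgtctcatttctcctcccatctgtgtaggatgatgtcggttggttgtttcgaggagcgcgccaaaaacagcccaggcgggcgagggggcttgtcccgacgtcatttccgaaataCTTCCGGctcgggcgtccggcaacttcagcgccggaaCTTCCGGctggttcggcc
Sdhd: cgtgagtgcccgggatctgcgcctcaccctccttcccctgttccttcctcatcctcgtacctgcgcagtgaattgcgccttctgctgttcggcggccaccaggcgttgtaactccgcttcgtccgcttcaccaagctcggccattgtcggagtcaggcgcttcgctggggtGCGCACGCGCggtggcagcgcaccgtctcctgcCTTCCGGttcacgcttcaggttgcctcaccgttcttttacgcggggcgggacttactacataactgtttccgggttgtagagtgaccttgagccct
Cox6a1: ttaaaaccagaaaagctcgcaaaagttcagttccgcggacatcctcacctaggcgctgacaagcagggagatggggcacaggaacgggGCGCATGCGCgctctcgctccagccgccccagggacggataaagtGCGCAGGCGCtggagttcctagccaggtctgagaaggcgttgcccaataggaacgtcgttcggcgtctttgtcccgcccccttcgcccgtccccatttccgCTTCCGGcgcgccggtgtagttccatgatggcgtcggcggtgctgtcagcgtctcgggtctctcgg
The Cox8b window held 1 TATAAA, no NRF1 or ETS match and 2 CG pairs. The Cox8a window held 2 ETS matches and 19 CG pairs, that of Sdhd 1 NRF1 and 1 ETS match with 29 CG pairs, and that of Cox6a1 2 NRF1 and 1 ETS match with 32 CG pairs. No match says only that these letters are not in the window.

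Genes of mitochondrial biogenesis, among them regulators known to act on such promoters, varied without a common direction. Of 16 tested genes 9 were higher, against 57.6% of all genes, and 7 lower. Free of overlap were 1 higher, against 12.3% of all genes, and 3 lower, against 8.57%. Esrra, a nuclear receptor that drives respiratory genes, read 6.10 and 5.77 with metformin, against 5.75 and 5.51 in controls, without overlap (difference 0.30, SE 0.31). Nrf1 read 0.45 and 0.66 against 0.41 and 0.60 in controls (difference 0.05, SE 0.29). Tfam, which maintains and transcribes mitochondrial DNA, read 0.99 and 1.09 with metformin, against 1.14 and 1.20 in controls, so both metformin samples lay below both controls (difference -0.13, SE 0.28). The coactivator Ppargc1a read 2.95 and 0.66 against 2.43 and 1.00 in controls, higher in the samples numbered 1 (difference 0.09, SE 0.95).

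Assembly factors, which build the complexes but are not part of them, were less uniform. Of 44 tested factors of complexes II to V, 28 were higher and 16 lower, with a median difference of 0.07, near the 0.06 of all genes. Without overlap in the higher direction were 10 (against 12.3% of all genes), and none in the lower (against 8.57%). By complex, 3 of 4 factors of complex II, 2 of 5 of complex III, 18 of 29 of complex IV and 5 of 6 of complex V were higher. The 3 higher genes of smallest p were Coa5, a complex IV factor, at 0.33 (SE 0.28), Sco2, which delivers copper to complex IV, at 0.37 (SE 0.36), and Atpif1, the inhibitor of ATP synthase, at 0.29 (SE 0.30). The 3 lower ones were Cep89 at -0.34 (SE 0.33), Cmc2 at -0.32 (SE 0.33) and Cox15, which makes the heme A of complex IV, at -0.25 (SE 0.37). With the mean of each gene's kept probes Cep89 differed by -0.15, Cox15 by -0.045 and Coa5 by 0.23, and the others were unchanged. None of these 6 passed limma's test (adjusted p = 1.00 for each).

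Other mitochondrial lists are set beside the members with no test of the difference. All 36 tested complex I subunits were higher by mean, against 57.6% of all genes (median 0.18), and 14 of them did not overlap, against 12.3%. Their medians over arrays were 0.13 and 0.05 with metformin, against -0.04 and -0.12 in controls. Of 13 TCA cycle enzymes 12 were higher (median 0.21), and the 2 without overlap are a share near that of all genes. The 77 tested proteins of the mitochondrial ribosome, which translates the mitochondrial subunits of these complexes, had a median difference of -0.03, with 34 higher and 43 lower. Their medians were -0.22 and 0.18 with metformin, against -0.14 and 0.20 in controls, so they were ordered by sample number and not as the respiratory subunits were. Probes for the subunits encoded in mitochondrial DNA were not matched by accession and are not analysed here.

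**Figure D4:**
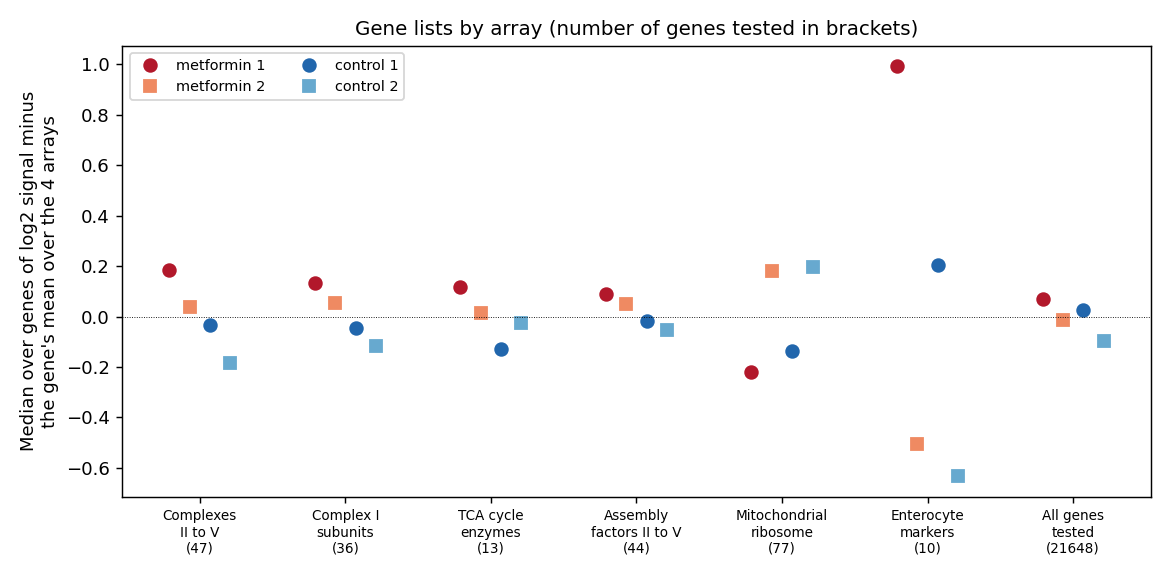
Median over the genes of a list of the log2 signal minus each gene's mean over the 4 arrays (vertical axis), with 1 point per array and the number of genes tested under each list. The respiratory complexes are highest in metformin 1 and lowest in control 2, while the mitochondrial ribosome is lowest in metformin 1 and highest in control 2.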

How the data were processed

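The 4 scanner files hold linear spot intensity values from Agilent Feature Extraction 10.7.3.1, per the file headers, background-subtracted and spatially detrended within an array and not scaled between arrays. The authors also deposited a table called normalized, whose intensity values equalled the raw median spot signal on all 4 arrays for 39030 of 39030 single-spot probes (tolerance 1e-06), so it served only as an alternative.

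Processed signals were put on the log2 scale, flagged spots were left out, spots of a probe were averaged and each array's 75th percentile over probes was subtracted (signals of 866 and 1072 with metformin, 918 and 1454 in controls). Spots of 1 probe differed by a median SD of 0.05 in the brighter 199 of 399 repeated probes. RefSeq accessions without versions named 27508 of 39429 probes through the table of GRCm38.p6. A probe was kept if well above background on both arrays of a group, and the brightest kept probe of a gene was tested, 21648 genes and transcripts in all, by limma's moderated linear model (version 3.58.1, R 4.3.3, two-sided, Benjamini-Hochberg, threshold 0.05, residual df 2, prior df 2.43). Where a group was not well above background, the fold is a bound, against the higher of the lowest signal well above background on the array and the probe's own. The arrays' small number, 2 a group, limits the precision.

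Full values were given for all complex II members, the 3 most positive and 3 most negative differences of each other complex, members at least 2-fold apart without overlap, isoform pairs, the 3 assembly factors of smallest p each way and 4 regulators. The other members were given by range. Members and lists were chosen with earlier results of these data known. The normexp alternative used the median spot signal.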

Additional observations from a re-analysis of the deposited data

How the results depend on the processing

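In none of the alternatives did a gene pass limma's adjusted test: 0 of 21648 genes as reported (smallest adjusted p = 1.00, 347 genes at an unadjusted p under 0.05), 0 with trend and robust moderation (289) and 0 with the replicate number as a block (smallest adjusted p = 0.63, 1566 genes at an unadjusted p under 0.05). The block left the members' median at 0.21 and changed no call. Samples with the same number deviated together (r = 0.56 across genes), but with 2 numbers and no label that ties them to an animal or day this does not pair the samples.

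Median scaling moved the median of all genes to 0.19 and that of the 47 members to 0.34 (complex II 0.42, complex III 0.32, complex V 0.34). The distance between members and all genes stayed at 0.15 by construction, because either scaling subtracts the same value from every gene of an array. Quantile normalization gave a distance of 0.05, with 0.082 for complex III, 13 members higher without overlap, 4 members lower and slightly negative differences in Cox6a1 (-0.0099), Cox7a2l (-0.0064), Atp5g2 (-0.029) and the regulator Ppargc1a (-6.7e-04). Normexp left 0 members lower without overlap. Members lower by mean numbered 3 without a filter, which brought in Cox7b2 and Cox8c, and 0 when all 4 arrays had to be well above background, which removed Cox8b along with the 1 lower member without overlap.

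Leaving out each array in turn gave a median of 0.13 to 0.30 for the members, 0.19 to 0.42 for complex II, 0.19 to 0.26 for complex III, 0.09 to 0.30 for complex IV and 0.13 to 0.33 for complex V. There were 43 to 45 members higher, 2 to 4 lower, and 1 to 2 lower without overlap. Differences that changed sign ranged from -0.36 to 0.92 in Cox6a2, -1.19 to 1.70 in Cox6b2, -0.049 to 0.22 in Cox7a2l, -0.027 to 0.16 in Atp5g1, -0.023 to 0.13 in Atp5g2, -0.056 to 0.16 in Nrf1, -1.05 to 1.23 in Ppargc1a and -0.63 to 0.12 in Cox15. Where a group held 1 array, it was assumed to vary like the other. Of 475 repeats over 34 named genes 458 kept their direction. The 475 include settings that leave a gene's difference as it was, such as the block and the trend and robust moderation. The share is therefore no measure of stability. Reversed were 17 repeats, 13 of them with 1 array left out. The causes were not tested.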
